A study of Homo sapiens with 10 samples.

Results

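Fibronectin, encoded by FN1, and the integrin subunits of the 2 colon cancer lines were followed over 10 culture conditions, with 1 array per condition and no replicates. The genes were FN1 and the subunits ITGA2, ITGA3, ITGA5, ITGA6, ITGAV, ITGB1, ITGB4, ITGB5 and ITGB6, and the probe set of each was chosen by its level, as the one with the highest mean over the 10 arrays among those annotated to that symbol alone. Of the 10 genes, 9 had such a probe set, out of 19775 genes on the array with one. All 9 were among the 13243 genes tested, those with at least 1 colon cancer array above 6.18 log2, which is the median of all values. The 4 probe sets of ITGB6, the beta6 subunit, are each annotated to 2 symbols and were left out; their signals lay between 3.57 and 4.69 log2 on the 10 arrays, below the median of all values. Of the 30 probe sets of the 9 genes, only the brightest of each gene is described unless another is named, and for FN1 all 7 are given.

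HCT116 is a human colorectal carcinoma cell line, and Hke3 is a clonal line derived from it. Both were grown in MEM with 10% FBS. THP1, a human monocytic leukaemia line that the labels call macrophages, was grown in RPMI with 10% FBS. HCT116 and Hke3 were each profiled alone, with vitamin D3 for 24 hours, in coculture with THP1, and in coculture with vitamin D3, which gives 8 arrays, and THP1 was profiled alone and with vitamin D3, which gives 2. In coculture the cells shared soluble factors but did not touch. Nothing in the labels states that an array pools several cultures, and each line is represented by that line alone, so a difference between lines is a difference between HCT116 and this 1 derivative.

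Fibronectin is a large secreted glycoprotein that cells assemble into fibrils of the extracellular matrix. Integrins are transmembrane receptors made of 1 alpha and 1 beta subunit. The pair of ITGA5 and ITGB1 (alpha5beta1) is the main receptor that assembles fibronectin, and ITGAV pairs with ITGB1, ITGB5 or ITGB6 in receptors that bind the RGD motif of fibronectin, vitronectin or latent TGF-beta. ITGA2 with ITGB1 binds collagen, and ITGA3 or ITGA6 with ITGB1 binds laminin. ITGA6 with ITGB4 anchors epithelial cells to laminin at hemidesmosomes. Many cells carry ITGB1 in excess of its alpha partners, so the alpha chain usually sets which receptors reach the surface.

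The promoters of FN1 and of the 2 chains of its main receptor are shown because these genes encode a ligand and its receptor pair, yet their signals moved differently across the arrays. Each is the 250 bases before the gene's start in the RefSeq annotation of GRCh38.p14, written 5′ to 3′ on the gene's own strand. FN1 spans chr2:215360865-215436068, ITGA5 spans chr12:54395261-54419266 and ITGB1 spans chr10:32900318-32958230, all on the minus strand. Capitals mark exact matches, on either strand, to the cAMP response element TGACGTCA and the GC box GGGCGG, the letters bound by CREB-family and SP1-family factors.
FN1, chr2:215436069-215436318: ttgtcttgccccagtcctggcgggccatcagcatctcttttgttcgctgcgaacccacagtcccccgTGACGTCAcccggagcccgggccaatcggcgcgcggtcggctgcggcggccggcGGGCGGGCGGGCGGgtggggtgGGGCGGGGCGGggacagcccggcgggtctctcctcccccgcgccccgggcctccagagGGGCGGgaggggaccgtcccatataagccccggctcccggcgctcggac
ITGA5, chr12:54419267-54419516: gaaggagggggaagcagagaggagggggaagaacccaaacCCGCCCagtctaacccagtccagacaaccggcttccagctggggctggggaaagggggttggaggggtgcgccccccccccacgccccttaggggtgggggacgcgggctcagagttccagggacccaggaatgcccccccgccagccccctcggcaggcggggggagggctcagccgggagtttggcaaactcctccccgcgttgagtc
ITGB1, chr10:32958231-32958480: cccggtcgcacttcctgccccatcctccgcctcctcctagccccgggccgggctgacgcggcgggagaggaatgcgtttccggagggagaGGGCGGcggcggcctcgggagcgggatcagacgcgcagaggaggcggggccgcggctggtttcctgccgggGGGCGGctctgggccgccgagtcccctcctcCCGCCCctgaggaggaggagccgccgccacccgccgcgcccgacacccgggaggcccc

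The FN1 window holds 1 cAMP response element, at positions -183 to -176 from the start, which 1.65% of 35116 windows in the same table also hold. It holds 6 matches to the GC box, several of which overlap each other, against 1 in ITGA5 and 3 in ITGB1; 42.6% of all windows hold at least 1. FN1 also has 1 match to TATAA, which 18.9% of windows hold. The half-sites AGGTCA and AGTTCA, letters that the vitamin D receptor can bind in pairs, are in 12.1% and 8.80% of all windows and do not occur in these 3. The AP-1 element TGANTCA, found in 6.57% of windows, does not occur in these 3 either. Windows in the table have 300 bases, and all matches and shares were counted in the first 250, those before the start. These matches describe letters in a window and were not tested as binding sites. RefSeq windows matched 7 of the 9 genes; ITGA3 and ITGB4 had none in the table.

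The labelled lines were checked against defining markers. Of 11 colon epithelial markers, 8 were above the median of all values on every HCT116 and Hke3 array, and 2 and 3 on the THP1 arrays. KRT20, LGALS4 and CDH17 were under it on every colon cancer array. VIL1 was among the 8 but read 6.29 to 6.50 log2 there against 6.37 and 6.42 in THP1. The 14 myeloid markers had medians of 5.39 to 5.66 log2 on the colon cancer arrays against 10.7 and 11.4 on the THP1 arrays. The summed linear signal of the myeloid markers was 766 to 841 without coculture, 792 to 828 with it and 51740 to 70280 in THP1. The myeloid marker SRGN read 6.28 log2 on the Hke3 array labelled coculture with vitamin D3, 3.94 to 4.90 on the other cancer arrays and 13.90 and 14.05 in THP1. Of 10 fibroblast and endothelial markers, 3 to 4 were above the median on the colon cancer arrays and 4 to 5 in THP1. The difference between the 3' and 5' probe sets of ACTB, which grows as RNA degrades, was 0.16 to 0.30 log2 in HCT116, 0.56 to 0.94 in Hke3 and -0.01 and 0.09 in THP1. The same difference for GAPDH was -0.0995 to -0.0951 in HCT116, -0.0014 to 0.0625 in Hke3 and -0.1047 and -0.1075 in THP1. CYP24A1, the vitamin D 24-hydroxylase and a direct target of the vitamin D receptor, was higher with vitamin D3 by 1.44 log2 in HCT116 alone and 1.45 in Hke3 alone, but lower by -0.98 and -1.36 between the arrays labelled as coculture with and without vitamin D3. The signs in coculture go against those labels in both lines. The 4 coculture arrays are therefore named below by what they are labelled, and only means over both coculture arrays of a line do not depend on which of them received vitamin D3. The fits below hold a vitamin D3 term unless stated, so their standard errors and adjusted p depend on those labels, also for cell line and coculture. For the Hke3 array titled with vitamin D3, a source label says untreated while the other labels say treated, and CYP24A1 there was 12.35 log2 against 10.89 in Hke3 alone; it was kept as treated.

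FN1 was the most variable of these genes over the colon cancer arrays, with an SD of 0.95 log2 (n = 8). In HCT116 its signal was 7.81 log2 alone, 8.51 with vitamin D3, 9.32 on the array labelled coculture and 8.62 on the array labelled coculture with vitamin D3. In Hke3 the values were 9.23, 10.18, 10.73 and 9.73 in the same order. In THP1 they were 6.85 alone and 9.52 with vitamin D3. Untreated monoculture was the lowest condition in each of the 3 lines, and in both cancer lines the array labelled coculture without vitamin D3 was the highest. Ordered over all 10 arrays from low to high, FN1 ran through THP1 alone, HCT116 alone, HCT116 with vitamin D3, HCT116 labelled coculture with vitamin D3, Hke3 alone, HCT116 labelled coculture, THP1 with vitamin D3, Hke3 labelled coculture with vitamin D3, Hke3 with vitamin D3 and Hke3 labelled coculture. Steps between neighbours in that order were 0.10 to 0.97 log2. With 1 array per condition the spread within a condition is unknown. Only the lowest 2 of the 9 steps exceeded 0.61 log2, the residual SD of the additive fit for FN1. A residual SD describes single arrays, and a step between 2 arrays has a wider spread, so exceeding it does not set a step apart from noise. With a coculture by vitamin D3 term added that SD was 0.16 log2, and only the steps of 0.10 and 0.11 log2 lay under it. Neither fit used the THP1 arrays, so neither SD measures the spread of the steps that involve them.

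**Figure D1:**
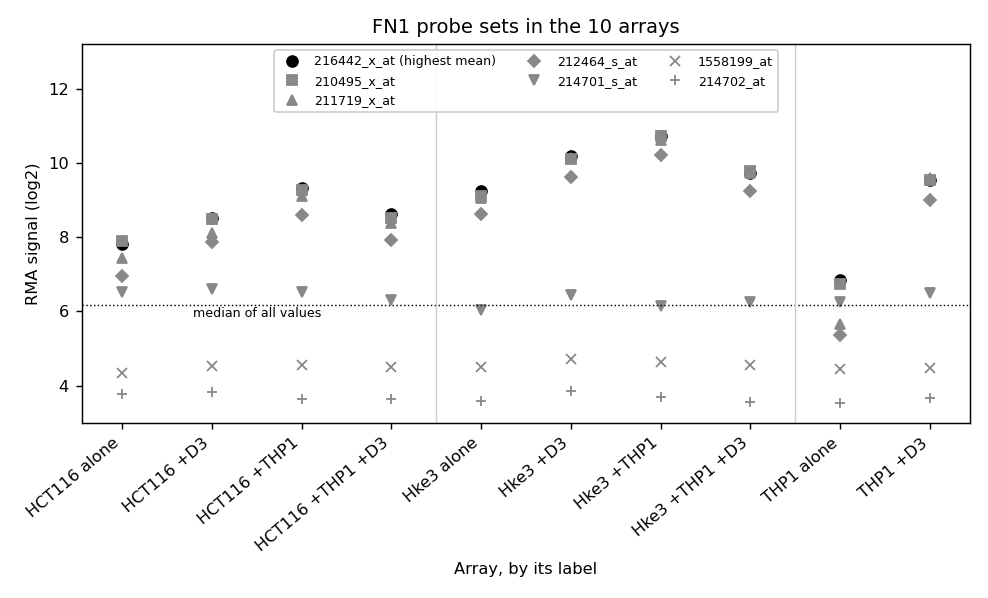
RMA signal (log2, y axis) of the 7 FN1 probe sets on the 10 arrays (x axis, by label); black circles are the probe set with the highest mean, grey symbols the others, and the dotted line is the median of all values, 6.18. The 4 bright probe sets rise and fall together, from 6.85 in THP1 alone to 10.73 in Hke3 labelled coculture for the black circles, while the other 3 do not exceed 6.59 on any array.

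Of the 7 FN1 probe sets, 4 were bright and behaved alike: 216442_x_at, 210495_x_at, 211719_x_at and 212464_s_at. The suffix _x_at marks probe sets that can also capture other transcripts, and 212464_s_at is the 1 of the 4 without that suffix. For 212464_s_at the 4 HCT116 arrays read 6.96, 7.88, 8.60 and 7.93 log2 and the 4 Hke3 arrays 8.62, 9.63, 10.21 and 9.23, in the order given above, with 5.36 and 9.001 in THP1. The order of the 4 arrays of each cancer line was the same as for the probe set with the highest mean. The other 3 probe sets were dim: 214701_s_at lay between 6.04 and 6.59, 1558199_at between 4.33 and 4.70, and 214702_at between 3.54 and 3.84, and none had differences of the size seen in the bright ones. Small differences in 1558199_at (-0.09 to 0.20 log2) and 214702_at (-0.12 to 0.25) had the signs of the bright probe sets in the 4 vitamin D3 pairs. Both lay under the median of all values on every array, so these signs carry little weight. The third dim probe set, 214701_s_at, had the opposite sign in the Hke3 coculture pair (0.10). Probe sets of 1 gene share its transcript and are not replicates of a condition.

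The alpha chain of the fibronectin receptor, ITGA5, was lower in every HCT116 array than in any Hke3 array. Its signal was 8.33 log2 alone, 8.34 with vitamin D3, 8.42 labelled coculture and 8.57 labelled coculture with vitamin D3 in HCT116. In Hke3 it was 9.03, 8.96, 9.26 and 9.49. Both coculture arrays were above both monoculture arrays in each line, which held for no other of the 9 genes by the brightest probe set. Dimmer probe sets of ITGB1 (1553530_a_at and 1553678_a_at), ITGA6 (215177_s_at) and ITGB4 (204989_s_at and 211905_s_at) also had that pattern in both lines. ITGB1, the shared beta1 chain, was near 13 log2 throughout, with 13.10, 13.19, 13.54 and 13.64 in HCT116 and 13.56, 13.48, 13.42 and 13.48 in Hke3. Low signals came from the 2 HCT116 monocultures, and the other 6 lay close together.

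Of the RGD-binding chains, ITGAV varied little, reading 10.41, 10.25, 10.34 and 10.55 log2 in HCT116 and 10.70, 10.56, 10.52 and 10.63 in Hke3. For ITGAV the lines overlapped, because the HCT116 array labelled coculture with vitamin D3 exceeded 1 Hke3 array. ITGB5, which pairs with ITGAV, read 10.20, 10.07, 10.33 and 10.39 in HCT116 and 10.72, 10.74, 10.72 and 10.56 in Hke3. Here every Hke3 array was above every HCT116 array.

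The collagen receptor chain ITGA2 read 8.95, 8.84, 9.26 and 9.29 log2 in HCT116 and 9.78, 10.24, 10.49 and 9.90 in Hke3. ITGA3, the alpha chain of a laminin receptor, read 8.99, 8.76, 9.39 and 9.75 in HCT116 and 10.09, 9.96, 10.01 and 10.06 in Hke3. For neither gene did the lines overlap, and ITGA3 was nearly flat in Hke3 but not in HCT116.

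The hemidesmosome pair had its brightest arrays in Hke3. ITGA6 read 10.22, 10.15, 10.27 and 10.52 log2 in HCT116 and 10.72, 10.68, 10.64 and 10.74 in Hke3. ITGB4 read 9.72, 9.49, 10.04 and 10.43 in HCT116 and 11.11, 10.69, 10.91 and 11.65 in Hke3. In both lines the ITGB4 array labelled coculture with vitamin D3 was the highest and the vitamin D3 monoculture the lowest.

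**Figure D2:**
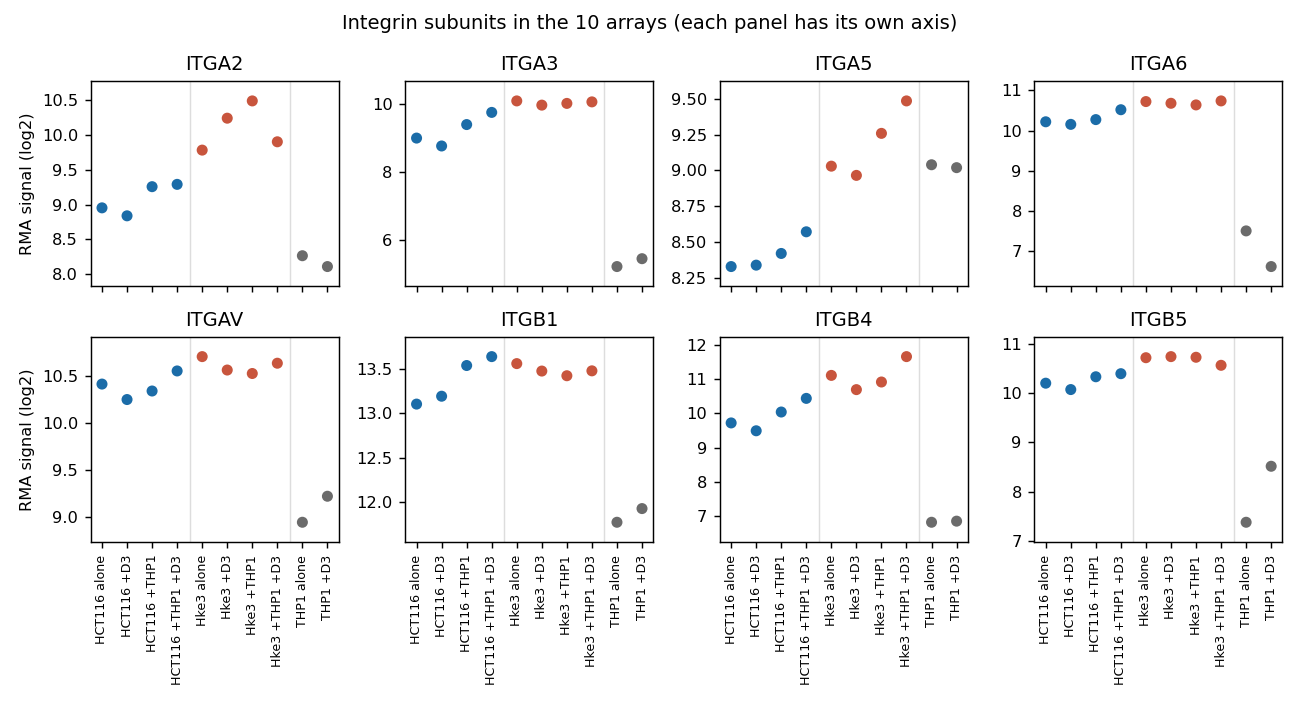
RMA signal (log2, y axis, a separate scale in each panel) of 8 integrin subunits on the 10 arrays (x axis, by label), with HCT116 in blue, Hke3 in red and THP1 in grey; each point is 1 array. Every Hke3 point is above every HCT116 point for ITGA2, ITGA3, ITGA5, ITGA6, ITGB4 and ITGB5, and ITGB1 is lowest in the 2 THP1 arrays at 11.78 and 11.93.

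The first comparison was between the cell lines, HCT116 and its derivative. FN1 and most integrin chains were higher in Hke3 than in HCT116. FN1 was 2.63-fold higher in Hke3 (log2 difference 1.40 ± 0.30, standard error of the limma fit, 4 pairs of arrays matched for culture, higher in 4 of 4). ITGB4 was higher by 1.17 ± 0.17, ITGA2 by 1.02 ± 0.14, ITGA3 by 0.81 ± 0.15 and ITGA5 by 0.77 ± 0.07 log2. ITGB5 was higher by 0.44 ± 0.08 and ITGA6 by 0.40 ± 0.08. These 7 of 9 passed the threshold, an adjusted p of 0.05 over all genes tested by limma, with adjusted p from 0.000156 for ITGA5 to 0.00759 for FN1, and each was higher in 4 of 4 pairs. ITGAV, at 0.22 ± 0.08, missed it (adjusted p = 0.0584, limma; higher in 4 of 4 pairs), and ITGB1, at 0.12 ± 0.10, was higher in 2 of 4 pairs (adjusted p = 0.403, limma). In RNA from a whole culture, more cells expressing a gene and more RNA per cell cannot be told apart.

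Among all genes tested, 40.5% passed for cell line and 24.8% were higher in Hke3, against 7 of these 9. The median difference was 0.77 log2 over the 9 genes and 0.01 over all genes. The 4 arrays of each line did not overlap for 6 of 9 genes, all higher in Hke3, and 21.1% of all genes had that pattern. FN1 was not among the 6, since HCT116 labelled coculture, at 9.32, exceeded Hke3 alone, at 9.23. By the dimmer probe sets 215177_s_at of ITGA6, 204989_s_at of ITGB4 and 201124_at of ITGB5 the lines did overlap. For 215177_s_at the difference was 0.20 ± 0.06 log2. The ACTB 3' to 5' difference was also higher in every Hke3 array than in any HCT116 array, as was the GAPDH one by less. Their part in the differences between lines was not tested. With each of 22 probe sets of these genes tested on its own, 14 were higher in Hke3 and none lower. The dim FN1 probe set 214701_s_at was the exception among the FN1 probe sets tested, at -0.26 ± 0.09 (adjusted p = 0.0521, limma), and 201124_at of ITGB5 differed by 0.01 log2. Of the 4 ITGB4 probe sets tested, 204990_s_at (1.17) and 204989_s_at (0.72 ± 0.15) passed, while 211905_s_at (0.11 ± 0.14, adjusted p = 0.565, limma) and the dim 230704_s_at (0.00 ± 0.07, adjusted p = 0.998, limma) did not. With the mean over all probe sets of a gene, dim ones included, the difference was 0.83 log2 for FN1 and 0.36 for ITGB4, both still past the threshold.

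**Figure D3:**
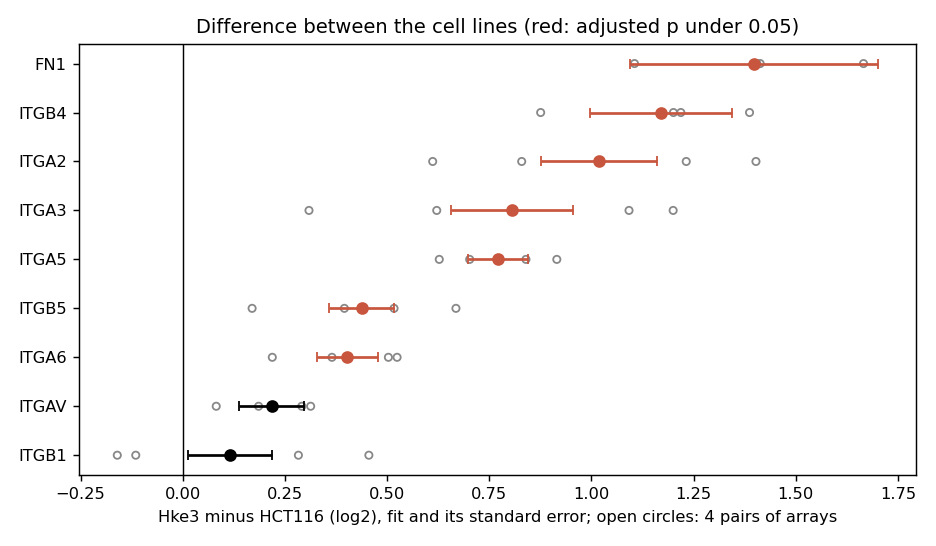
Hke3 minus HCT116 (log2, x axis) for the 9 genes (y axis); filled circles with bars are the limma estimate and its standard error, red where the adjusted p is under 0.05, and open circles are the 4 pairs of arrays matched for culture. The estimates run from 0.12 for ITGB1 to 1.40 for FN1, and only ITGB1 has pairs on both sides of 0.

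Genes that act with these receptors were counted in 4 lists, beside the 24.8% of all genes that were higher in Hke3. Of 11 other integrin subunits tested, 3 were higher in Hke3 and none lower: ITGB8, which pairs with ITGAV (1.79 ± 0.15 log2), ITGAE, the E-cadherin receptor chain (0.37 ± 0.06), and ITGA7, a laminin receptor chain (0.30 ± 0.05). Of 24 integrin adaptors and kinases, 12 were higher and 1 lower. TNS4 and TNS3, tensins that bind beta tails (1.19 ± 0.06 and 0.74 ± 0.09), TLN1, the talin that activates integrins (1.04 ± 0.10), and ZYX, a focal adhesion protein (0.76 ± 0.06), were among the higher, and FERMT1, a kindlin that also activates integrins, was lower (-0.42 ± 0.14). Of 13 matrix ligands 10 were higher and none lower, with SPP1, or osteopontin (1.90 ± 0.16, approximate because its HCT116 mean of 5.35 lay under the median of all values), TGFB1, whose latent form binds alphav integrins (1.22 ± 0.09), and the laminin chains LAMB2 (1.05 ± 0.06) and LAMA5 (0.68 ± 0.06). Of 10 hemidesmosome and tetraspanin partners 9 were higher and none lower, including SDC4, a fibronectin-binding proteoglycan (0.86 ± 0.09), the tetraspanins CD9 (0.62 ± 0.05) and CD81 (0.50 ± 0.06), and PLEC, which ties ITGB4 to keratin (0.56 ± 0.09). The list medians were 0.06, 0.24, 0.55 and 0.46 log2, against 0.01 over all genes.

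Coculture with THP1 was compared next, over both lines and both vitamin D3 labels. All 9 genes had an estimate above 0, and none passed the threshold. FN1 had the largest, 0.67 ± 0.30 log2 (adjusted p = 0.207, limma, higher in 3 of 4 pairs), followed by ITGB4 at 0.51 ± 0.17 (adjusted p = 0.109, 3 of 4 pairs). ITGA3 differed by 0.35 ± 0.15, ITGA2 by 0.28 ± 0.14 and ITGB1 by 0.19 ± 0.10, each higher in 3 of 4 pairs. By the brightest probe sets ITGA5, at 0.27 ± 0.07, was the 1 gene higher in 4 of 4 pairs and had the smallest adjusted p (0.061, limma). ITGA6 (0.10 ± 0.08), ITGB5 (0.07 ± 0.08) and ITGAV (0.03 ± 0.08) had the smallest estimates. These 9 estimates do not depend on which coculture array received vitamin D3. Their standard errors, adjusted p and counts of pairs do, so that none passed rests in part on labels in doubt.

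The count of 0 of 9 stands beside 7.82% of all genes called for coculture and 3.76% called higher. At an unadjusted p under 0.05 limma took 3 of 9, ITGA3, ITGA5 and ITGB4, and 26.2% of all genes. The median difference was 0.27 log2 over the 9 genes and -0.02 over all genes. The myeloid marker sums given above overlapped between monoculture and coculture. Some calls depended on the probe set: with each tested on its own, 215177_s_at of ITGA6 (0.37 ± 0.06 log2, adjusted p = 0.0208, limma), 204989_s_at of ITGB4 (0.70 ± 0.15, adjusted p = 0.0376, limma) and 1553530_a_at of ITGB1 (0.43 ± 0.09, adjusted p = 0.0394, limma) passed, 3 of 22, although none is the brightest of its gene. ITGA5 passed with a filter at the 75th percentile (adjusted p = 0.0442, limma), and FN1 (0.0247) and ITGB4 (0.0294) passed when a coculture by vitamin D3 term was added, a setting chosen after the data were seen.

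The pairs of FN1 split by label. Without vitamin D3, the array labelled coculture was higher than the monoculture by 1.509 log2 in HCT116 and 1.501 in Hke3. Between the arrays labelled with vitamin D3 the difference was 0.11 and -0.45. ITGB4 split the other way, with 0.32 and -0.19 without vitamin D3 and 0.95 and 0.96 with it (HCT116 first). For both genes the split is by the coculture labels that CYP24A1 goes against.

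**Figure D4:**
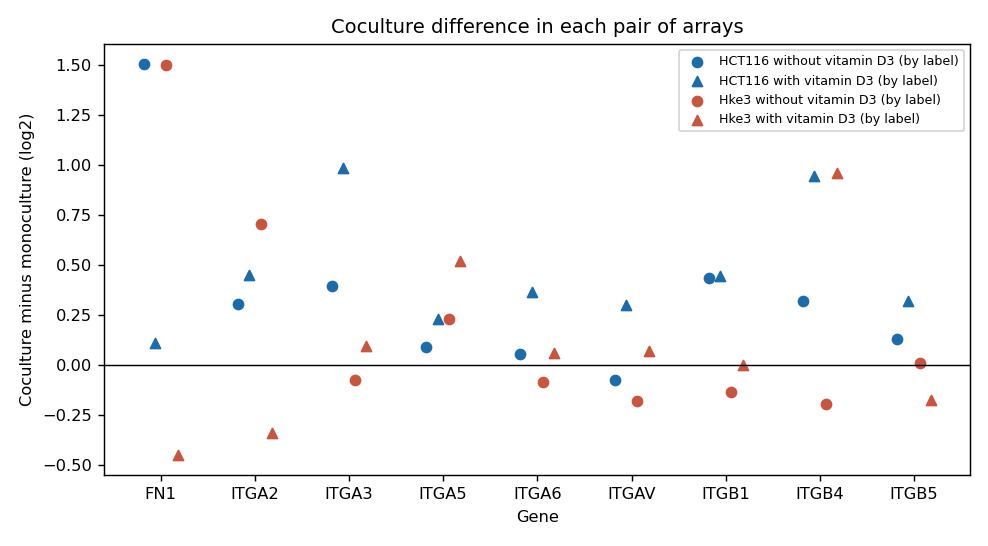
Coculture minus monoculture (log2, y axis) for the 9 genes (x axis) in the 4 pairs of arrays, with HCT116 in blue and Hke3 in red, circles for pairs labelled without vitamin D3 and triangles for pairs labelled with it. FN1 circles sit at 1.509 and 1.501 and its triangles at 0.11 and -0.45, while the ITGB1 points separate by line, at 0.43 and 0.45 in HCT116 and -0.14 and 0.00 in Hke3.

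Partner genes were counted in the same lists for coculture, where 7.82% of all genes passed. Of 11 other integrin subunits none was higher and 1 was lower, ITGAE (-0.27 ± 0.06 log2). Of 24 adaptors and kinases none passed. Of 13 matrix ligands 2 rose, the laminin chains LAMB3 (0.54 ± 0.09) and LAMC1 (0.26 ± 0.05), which belong to laminins that ITGA3 and ITGA6 receptors bind. Of 10 hemidesmosome and tetraspanin partners 2 rose, the integrin-associated CD47 (0.37 ± 0.05) and SDC4 (0.46 ± 0.09), and the proteoglycan SDC1 fell by 0.31 ± 0.06. The list medians were -0.06, 0.03, 0.09 and 0.08 log2.

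The next question was whether coculture acted alike in the 2 lines. In HCT116 both coculture arrays were above both monoculture arrays for 8 of 9 genes, all but ITGAV, a pattern of 25.3% of all genes. In Hke3 this held for 1 of 9 by the brightest probe set, ITGA5, and for 26% of all genes. Dimmer probe sets of ITGB1, ITGA6 and ITGB4 had the pattern in both lines. The mean difference, HCT116 before Hke3, was 0.81 and 0.52 log2 for FN1, 0.69 and 0.01 for ITGA3, 0.63 and 0.39 for ITGB4, 0.44 and -0.07 for ITGB1, and 0.38 and 0.18 for ITGA2. It was 0.23 and -0.08 for ITGB5, 0.21 and -0.01 for ITGA6, and 0.11 and -0.05 for ITGAV. For ITGA5 it was 0.16 and 0.38, and by the brightest probe sets this was the 1 gene with the larger value in Hke3. By the dimmer 204989_s_at of ITGB4 it was 0.67 and 0.73, and by 215177_s_at of ITGA6 it was 0.36 and 0.39. These means do not depend on which coculture array received vitamin D3, while the standard errors and adjusted p of their test do.

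The test of that difference, the cell line by coculture term, passed for 1 of 9 genes. ITGB1 had a term of -0.51 ± 0.10 log2 (adjusted p = 0.0406, limma), larger in HCT116, where 4.21% of all genes passed and 2.34% passed with the larger value in HCT116. Without any 1 of the 8 arrays the term was -0.42 to -0.59 log2 and the call was lost (adjusted p from 0.0698 to 0.144, limma). It was also lost with no filter on dim genes (-0.51, adjusted p = 0.0824) and with the mean over all probe sets of the gene (-0.20, adjusted p = 0.217). The other bright ITGB1 probe sets, 1553530_a_at and 1553678_a_at, gave 0.64 and 0.59 log2 in HCT116 and 0.22 and 0.13 in Hke3, with terms of -0.42 ± 0.11 and -0.46 ± 0.11 that missed the threshold (adjusted p = 0.0817 and 0.0713, limma). Hke3 was thus slightly above 0 by these probe sets and slightly below by the brightest.

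ITGA3 had the largest term in size, -0.68 ± 0.18 log2, and missed the threshold (adjusted p = 0.0852, limma), as did ITGB5 at -0.31 ± 0.11 (adjusted p = 0.161, limma). The dimmer ITGB5 probe set 201124_at passed on its own at -0.69 ± 0.13 (adjusted p = 0.0317, limma). Of the 9 terms 8 were below 0, with a median of -0.25 log2 against 0.02 over all genes. The signs for ITGB4 and ITGA6 depended on the probe set, with terms of 0.06 ± 0.30 for 204989_s_at and 0.03 ± 0.11 for 215177_s_at. In the Hke3 pairs the ACTB 3' to 5' difference was 0.94 and 0.72 in monoculture and 0.62 and 0.56 in coculture, while in HCT116 it moved by less; its part in these terms was not tested. Among the lists, the adaptors held FERMT1 with the larger value in HCT116 (-0.75 ± 0.11 log2) and ITGB1BP1, which binds the beta1 tail and restrains activation, with the larger value in Hke3 (0.45 ± 0.09), 2 of 24. Of 13 ligands LAMB1 had the larger value in HCT116 (-0.60 ± 0.12), and no other integrin subunit (of 11) or hemidesmosome partner (of 10) passed.

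Vitamin D3 was compared in monoculture and, by label, in coculture. In monoculture FN1 was higher with vitamin D3 by 0.70 log2 in HCT116 and 0.95 in Hke3. Between the arrays labelled coculture it was lower with the vitamin D3 label, by -0.70 in HCT116 and -1.001 in Hke3. CYP24A1 had the same signs in each of these 4 pairs. ITGB4 had the opposite signs, with -0.23 and -0.42 in monoculture and 0.40 and 0.74 in coculture. ITGAV (-0.16 and -0.14, then 0.21 and 0.11), ITGA3 (-0.23 and -0.12, then 0.36 and 0.04) and ITGA6 (-0.06 and -0.04, then 0.25 and 0.10) also changed sign in both lines, in the direction of ITGB4.

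Averaged over the 4 pairs as labelled, none of the 9 genes differed past the threshold for vitamin D3, with estimates from -0.05 for ITGA2 to 0.12 for ITGB4 and -0.01 ± 0.30 log2 for FN1. The additive fit called 0 of 13243 genes for vitamin D3 (0%), and 375 had an unadjusted p under 0.05. The cell line by vitamin D3 term called 0 of 9 and 0% of all genes (144 at an unadjusted p under 0.05). The coculture by vitamin D3 term also called 0% (652 at an unadjusted p under 0.05). In that term FN1 had an estimate of -1.68 ± 0.18 log2 (adjusted p = 0.194, limma) and ranked 2 by p among the 13243 genes, behind CYP24A1 at -2.62 (adjusted p = 0.122, limma). ITGB4 ranked 18 at 0.89 ± 0.17 (adjusted p = 0.941, limma). The remaining 7 genes ran from -0.45 for ITGA2 to 0.38 for ITGA3. The other bright FN1 probe sets gave -1.64, -1.69 and -1.79 log2. This term and the average both use the coculture pairs whose labels CYP24A1 goes against, so their sizes as well as their signs rest on labels in doubt. With the sign of those pairs turned, a value computed after the data were seen and given with no test, the FN1 term would be 0.03 and its average 0.84 log2, and the ITGB4 term would be -0.25 and its average -0.45. The monoculture pairs, which do not depend on those labels, averaged 0.82 for FN1 and -0.32 for ITGB4.

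**Figure D5:**
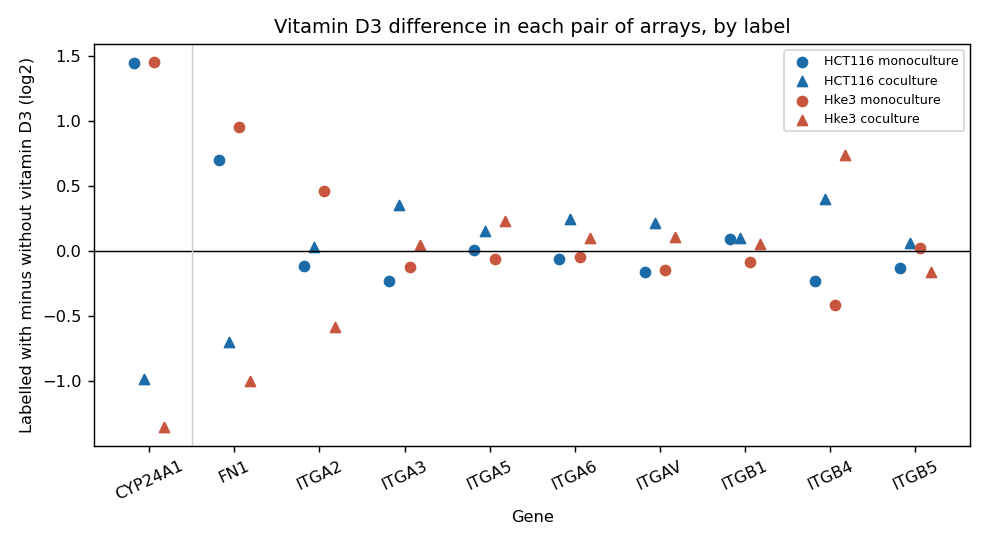
Array labelled with vitamin D3 minus its partner without (log2, y axis) for CYP24A1 and the 9 genes (x axis), with HCT116 in blue and Hke3 in red, circles for monoculture and triangles for coculture. CYP24A1 and FN1 have circles above 0 (FN1 0.70 and 0.95) and triangles below 0 (FN1 -0.70 and -1.001), and ITGB4 has the reverse.

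In THP1 the same genes were read on 2 arrays, so no test was possible. With vitamin D3, FN1 was 6.39-fold higher (2.68 log2), rank 23 of 12717 genes tested in THP1 by size of rise. CYP24A1 was 59.1-fold higher, an approximate value because its untreated signal of 4.51 log2 lay under the median of all values. The other bright FN1 probe sets gave 2.82, 3.92 and 3.64 log2. The last 2 are also approximate, since their untreated signals of 5.66 and 5.36 lay under that median. ITGB5 was 2.20-fold higher (1.14 log2), from 7.38 to 8.51. FN1 and ITGB5 were the 2 of 8 genes tested that were higher by at least 1 log2, against 1.56% of all genes. ITGA6 differed by -0.89 log2, from 7.502 to 6.614, and ITGAV by 0.28, from 8.95 to 9.22. ITGB1 (11.78 and 11.93), ITGA5 (9.04 and 9.02), ITGA2 (8.27 and 8.11) and ITGB4 (6.82 and 6.85) differed by less than 0.16 log2, although the ITGB4 probe set 204989_s_at read 5.56 and 6.56. ITGA3 read 5.22 and 5.45, below the median of all values. The other ITGA2 probe set, 227314_at, read 4.89 and 4.29 in THP1, under the median of all values, so the detection of ITGA2 there depends on the probe set.

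Against the cancer lines, 7 of 9 genes were lower on both THP1 arrays than on any HCT116 or Hke3 array: ITGA2, ITGA3, ITGA6, ITGAV, ITGB1, ITGB4 and ITGB5. This pattern held for 37.8% of the 13243 genes tested, which were chosen by their signal on the colon cancer arrays. That choice favours genes that are lower in THP1. ITGA3, below the median of all values in THP1, was among the genes tested only through the cancer arrays. FN1 in THP1 lay below every cancer array when untreated and within the Hke3 range with vitamin D3. ITGA5 in THP1 was above every HCT116 array and within the Hke3 range.

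The genes whose profiles over the 8 colon cancer arrays were most like each member were named by the root mean square difference of profiles centred on their means, for members with an SD of at least 0.4 log2. For FN1 these were GEM, a small GTPase (0.32 log2), KLK6, a secreted protease (0.36), and SERINC2 (0.37). GEM read 8.58, 9.13, 9.39 and 9.18 log2 in HCT116 and 9.20, 10.25, 10.62 and 9.74 in Hke3, in the order used for FN1. GEM shared with FN1 the highest array of each line, labelled coculture without vitamin D3. KLK6 shared it in HCT116 only and SERINC2 in Hke3 only. For ITGA2 they were NR4A2, a nuclear receptor (0.12), ZCCHC12 (0.14) and STAT3, a transcription factor (0.15). ZCCHC12 is an approximate match, reading 4.98 to 5.35 log2 in HCT116. It exceeded the median of all values only on the Hke3 arrays labelled coculture (6.68) and coculture with vitamin D3 (6.20). For ITGA3 they were RPS6KA5, CAMK1D and UBE2H (0.12 each). For ITGA5 they were SEMA4G (0.04), PAPSS2 (0.06) and HERC6 (0.07). For ITGB4 they were TSPAN18, a tetraspanin (0.19), COL13A1, a transmembrane collagen (0.21), and BHLHE41, a transcription factor (0.21). These likenesses are over 8 arrays that share lines and cultures and are descriptions with no test.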

How the data were processed

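Per the submitters' processing notes, the authors deposited log2 values computed by RMA (background correction, quantile normalisation, summary over the probes of a set) in the affy package, whose version is not given in the sources used here. RMA shrinks differences of dim probe sets. Of 54675 probe sets, 41097 carry 1 symbol. Precision is limited by the number of arrays.

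In R 4.3.3, limma 3.58.1 fitted additive terms for vitamin D3, coculture and cell line to the 8 colon cancer arrays (4 residual degrees of freedom), and each interaction was added alone (3). Pairs of arrays that differ in 1 factor stand in for replicates, which may carry technical spread. Tests were two-sided, with Benjamini-Hochberg adjustment over 13243 genes, and standard errors follow ±. The model was tested on simulated data. THP1 had no test. Promoter windows came from RefSeq.

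The members and the 4 lists were chosen with earlier results of these data known. All members are named, with up to 4 genes per list and comparison, past the threshold first by size, and 3 likeness genes. Alternatives covered filters, probe set choice, normalisation, eBayes settings, a block, each array left out and the model terms. Figures used matplotlib 3.10.9 in Python 3.11.15.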

Additional observations from a re-analysis of the deposited data

Results flagged for a closer look

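ITGB1 stood apart because the coculture difference differed between the lines in the interaction test (-0.51 log2, larger in HCT116, adjusted p = 0.0406 with limma), a call lost when any 1 array was left out.

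For 5 genes the vitamin D3 pairs pointed one way in monoculture and the opposite way between the arrays labelled coculture, in both lines. The coculture by vitamin D3 estimates were -1.68 for FN1, 0.89 for ITGB4, 0.38 for ITGA3, 0.31 for ITGAV and 0.23 for ITGA6 on the log2 scale. With 1 array left out they ranged from -1.87 to -1.48 for FN1, 0.69 to 1.09 for ITGB4, 0.048 to 0.71 for ITGA3, 0.22 to 0.404 for ITGAV and 0.104 to 0.35 for ITGA6. In the test of this difference limma passed none of the 5, with adjusted p from 0.194 to 0.998. CYP24A1 gave -2.62 in the same term, and the part of the coculture labels in these values was not tested.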

How the results depend on the processing

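No paired analysis was possible because no replicates exist to pair by number. The pairs in the fits are arrays matched for the other 2 factors, and the block below uses that matching. In cell line, the 7 called genes stayed past the threshold under every alternative run, with sizes moved by over 1.5 times for FN1 (0.83) and ITGB4 (0.36) with the mean of probe sets, and ITGAV joined them under 6 of its alternatives (adjusted p from 0.0207 to 0.0483, limma).

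For coculture the count of all genes was 1035. It was 656 when dim genes were kept, 259 when the other 2 factors formed a block, and 39 to 435 when 1 array was left out. Leaving out an HCT116 array gave 365 (alone), 39 (vitamin D3), 309 (coculture) and 176 (both), and leaving out an Hke3 array gave 306, 395, 348 and 435 in that order. Cyclic loess turned 498 higher and 537 lower into 632 and 448. Of the 9 genes 0 passed, and 1 did with the 75th percentile filter, cyclic loess, trend and robust fitting or no vitamin D3 term (ITGA5) or the mean of probe sets (ITGA6); 2 did with a coculture by vitamin D3 term (FN1, ITGB4). The last 2 model changes were chosen after seeing the data. With 1 array left out, ITGAV ranged from -0.043 to 0.088 log2, FN1 from 0.45 to 0.95, ITGA3 from 0.18 to 0.47, ITGA2 from 0.17 to 0.44, ITGB4 from 0.39 to 0.69, ITGB1 from 0.108 to 0.28, ITGA6 from 0.024 to 0.15 and ITGB5 from 0.0038 to 0.14.

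For cell line by coculture the count of all genes was 557, 277 with no filter, 973 with the 75th percentile filter, 1169 with trend and robust fitting, and 101 to 282 with 1 array left out. Of the 9 genes 1 passed, 0 with no filter, the mean of probe sets or each probe set on its own, 2 (ITGA3 added) with the 75th percentile filter or trend and robust fitting, and 0 to 1 with 1 array left out. With 1 array left out the terms ranged from -0.94 to 0.37 for FN1, -0.55 to 0.16 for ITGA2 and -0.66 to 0.16 for ITGB4; without the HCT116 array in coculture, ITGA3 passed (adjusted p = 0.0454, limma).

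For vitamin D3, where no gene passed, signs turned with the mean of probe sets (FN1 0.037, ITGA2 6e-04, ITGB5 0.039) and with median-centred arrays (FN1 0.0093). With 1 array left out the ranges were -0.29 to 0.27 for FN1, -0.20 to 0.11 for ITGA2, -0.16 to 0.16 for ITGA3, -0.015 to 0.12 for ITGA6, -0.069 to 0.067 for ITGAV, -0.038 to 0.13 for ITGB1, -0.062 to 0.29 for ITGB4 and -0.12 to 0.015 for ITGB5. For coculture by vitamin D3, 0 genes passed, 2 with the mean of probe sets and 0 to 1 with 1 array left out; ITGB5 was -0.045 with cyclic loess, and with 1 array left out ITGB1 ranged from -0.15 to 0.30 and ITGB5 from -0.18 to 0.18. The filters change the number of genes tested, and each leave-out run drops 1 array. The cause of these and the other changes was not tested.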
